A study of Mus musculus with 6 samples.

Results

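Cgn, Jam2, Dsp and Perp encode proteins of tight junctions and desmosomes, the contacts that seal and anchor an epithelium. They were followed in primary mouse Sertoli cells with and without UXT, and were taken by symbol as 4 genes of the 3257 analysed in the authors' deposited table. The RNA came from cells cultured from C57BL/6 testes and enriched for Sertoli cells by differential plating, then infected in both groups. The wild-type group was 3 libraries of wild-type cells that had received an empty plasmid, and the knockout group was 3 libraries of cells from UXT KO mice that had received a virus carrying Cre recombinase. UXT (ART-27) belongs to the prefoldin-like proteins and binds the androgen receptor, and the study asked which transcripts differ when it is missing. Cre was given to the knockout cells alone, so its effect and that of the genotype cannot be told apart. Not given in the sources used here are the animals' age, the allele, the promoter driving Cre, and whether the replicates were separate animals or cultures. The spread between libraries may therefore be technical.

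Sertoli cells are the epithelial cells of the seminiferous tubule, and the junctions between them form the blood-testis barrier, which keeps meiotic germ cells apart from the blood. In a tight junction, claudins and JAM proteins meet across the gap between cells, and scaffold proteins such as ZO-1 and cingulin tie them to actin. In a desmosome, desmogleins and desmocollins bind across the gap, and plakoglobin, plakophilins and desmoplakin tie them to intermediate filaments. In Sertoli cells the junctions of the barrier also join with desmosomes and gap junctions.

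The table lists genes that the authors selected on these same libraries, requiring a 1.5-fold change and an adjusted p below 0.05. The members were chosen from it with their changes known, so their differences between the groups are described here and carry no test. All 4 were listed as lower in the knockout, in a table of which 67.9% of the genes were lower. The authors' deposited table gave a fall of 11.7-fold for Cgn, 4.77-fold for Jam2, 2.58-fold for Perp and 2.03-fold for Dsp. Among the 2210 genes listed as lower, ordered by the size of the fall, Cgn stood at place 52, Jam2 at 319, Perp at 907 and Dsp at 1407. A fall of at least 4-fold was listed for Cgn and Jam2, and for 13.5% of all genes in the table. Dsp lay nearest to the edge of the selection, with an adjusted p of 0.0395 in the authors' deposited table.

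Cgn encodes cingulin, a cytoplasmic scaffold of the tight junction that binds ZO-1, actin and regulators of RhoA. The gene (gene ID 70737, minus strand of chromosome 3, 94760069 to 94786492 in GRCm38) had deposited log2 values of 10.82, 11.12 and 10.83 in the wild-type libraries and 8.39, 8.70 and 8.94 in the knockout libraries. Every knockout library was below every wild-type library, and the gap between the groups, 1.88, was wider than the range within either. The means were 10.93 ± 0.17 and 8.68 ± 0.28 (SD, n = 3 each), a difference of -2.25 ± 0.14 (SE of the limma fit, log2).

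Jam2 encodes JAM-B, an immunoglobulin-type adhesion protein of Sertoli cell and endothelial junctions that binds JAM-C on neighbouring cells. Jam2 (gene ID 67374, plus strand of chromosome 16, 84774123 to 84825928) had deposited log2 values of 13.55, 13.88 and 13.77 in wild-type and 11.93, 12.27 and 12.43 in knockout libraries. The groups were again apart, by 1.12. The means were 13.73 ± 0.17 and 12.21 ± 0.25 (SD, n = 3 each), and the difference was -1.52 ± 0.13 (SE, log2).

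Perp encodes a tetraspan membrane protein that stabilises desmosomes and is a transcriptional target of p53 and p63. Perp (gene ID 64058, plus strand of chromosome 10, 18845020 to 18857073) had deposited log2 values of 7.85, 7.76 and 7.62 in wild-type and 7.03, 7.15 and 7.22 in knockout libraries. The groups did not overlap, but the gap between them was narrower, 0.40. The means were 7.74 ± 0.11 and 7.13 ± 0.10 (SD, n = 3 each), with a difference of -0.61 ± 0.10 (SE, log2).

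Dsp encodes desmoplakin, the plakin that links the desmosome to intermediate filaments. Dsp (gene ID 109620, plus strand of chromosome 13, 38151294 to 38198577) had deposited log2 values of 6.52, 7.39 and 7.22 in wild-type and 6.42, 6.54 and 6.86 in knockout libraries. The groups overlapped: wild-type replicate 1 lay below knockout replicates 2 and 3, while wild-type replicates 2 and 3 lay above all 3 knockout libraries. The means were 7.04 ± 0.46 and 6.61 ± 0.23 (SD, n = 3 each), and the difference, -0.44 ± 0.21 (SE, log2), was smaller than the SD of the wild-type group. Without wild-type replicate 1 the difference was -0.70, and without wild-type replicate 2 it was -0.27. When all libraries were brought to one distribution of values (quantile normalization), the difference was 0.0037 for Dsp and -0.19 for Perp. This scaling raised the median difference of all genes by 0.33 (log2), in a table where 67.9% of the genes were lower. Which scaling is right cannot be decided from selected genes alone.

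**Figure D1:**
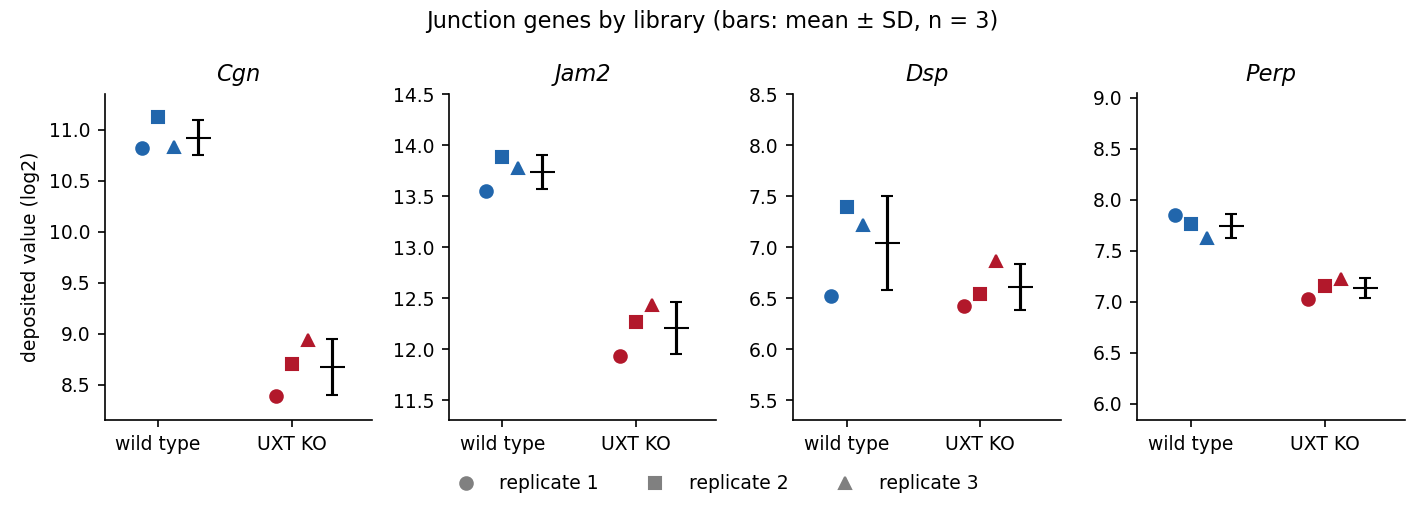
Deposited log2 values of Cgn, Jam2, Dsp and Perp in each library (y axis, log2, the same span in every panel) for wild-type (blue) and UXT knockout (red) cells, with replicates as symbols and mean ± SD in black. The groups are apart for Cgn, Jam2 and Perp, and wild-type replicate 1 of Dsp, at 6.52, lies among the knockout libraries.

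In 3 of the 4 genes all knockout values thus lay below all wild-type values, as they did in 65.8% of the table. The same 3 genes passed limma at an adjusted p under 0.05 and Dsp did not, in a table where 99.6% of the genes passed. Because the table was selected on this contrast, these counts describe the members and nothing is read from them. Within the knockout group replicate 1 had the lowest and replicate 3 the highest value of each of the 4 genes. That order was found in 27.6% of the genes listed as lower, and the median value over the whole table was 8.82, 8.88 and 8.91 in the same 3 libraries.

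Dsp had a wide spread among wild-type libraries. Its SD of 0.457 was larger than that of 99.2% of the genes in the table, whose median was 0.0931. The adjusted p that selected the table depends on the spread within groups, so these ranks hold among the selected genes only. Cgn and Jam2 were at 0.169 and 0.167, larger than 82.4% and 82.0% of the genes, and Perp was at 0.114, larger than 61.7%. The genes were also split into 4 equal bands by mean level. Within its own band, the wild-type SD exceeded that of 98.9% of the genes for Dsp and 90.7% for Jam2. For Cgn and Perp these shares were 84.4% and 52.1%. In the knockout group the SDs of Cgn, Jam2 and Dsp (0.277, 0.251 and 0.226) exceeded those of 92.9%, 90.2% and 87.0% of the genes, and that of Perp (0.0988) exceeded 48.5%. Of the 2210 genes listed as lower, 66 had overlapping groups, and in 37 of these (1.67% of the 2210), Dsp among them, wild-type replicate 1 was the one wild-type library not above all knockout libraries.

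**Figure D2:**
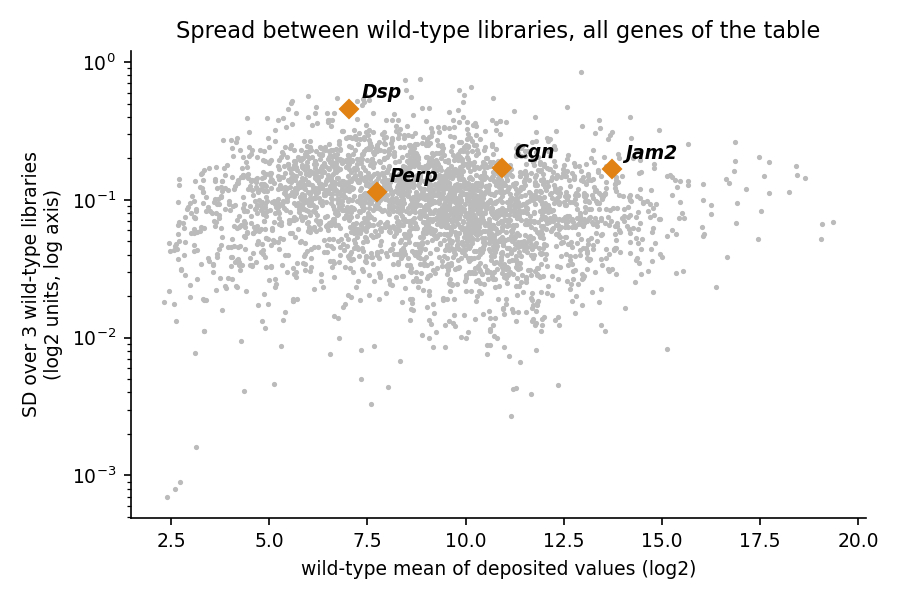
Standard deviation over the 3 wild-type libraries (y axis, log2 units on a log axis) against the wild-type mean of the deposited values (x axis, log2), with a grey point per gene of the table and the 4 junction genes as orange diamonds. Dsp, at 0.457, lies at the upper edge of the genes of its level, and Perp, at 0.114, lies in the middle.

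The values per library were moderated, so that differences between group means were smaller than the log2 fold changes of the authors' table. The difference was 0.634 of the deposited log2 fold change for Cgn, 0.675 for Jam2, 0.447 for Perp and 0.428 for Dsp. The moderation also varied with level. In the same bands of level, the median ratio was 0.243 in the band of Dsp and 0.507 in that of Perp. It was 0.614 in the band of Cgn and 0.654 in that of Jam2. Sizes of change from different sources can therefore not be mixed. Differences and SDs from the per-library values can be compared at most between genes of similar level.

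To order the genes by level, log2 values were taken per kilobase of the exons of the principal GENCODE transcripts (5.02 kb for Cgn, 4.37 kb for Jam2, 9.59 kb for Dsp and 1.95 kb for Perp). On this scale the wild-type means were 11.61 for Jam2, 8.60 for Cgn, 6.78 for Perp and 3.78 for Dsp, and each step was larger than the SDs between libraries. In the knockout the means were 10.08 for Jam2, 6.35 for Cgn, 6.17 for Perp and 3.34 for Dsp. There the libraries of Cgn (6.07 to 6.62) and Perp (6.06 to 6.26) overlapped. These levels carry the moderation too: the wild-type level plus the log2 fold change of the authors' deposited table would put Cgn at 5.05 and Perp at 5.41 in the knockout, so the order of these 2 genes there is not settled. Jam2 stayed the highest and Dsp the lowest of the 4 per unit length in all 6 libraries.

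The promoters of Cgn and Dsp, a scaffold of the tight junction and one of the desmosome that were both listed as lower, are shown to compare what lies ahead of their start sites. Sequences were matched for 2 of the 4 genes, and those of Jam2 and Perp were not matched. Each is the 250 bases before the RefSeq start in GRCm38.p6, written 5′ to 3′ on the strand of the gene, with capitals for GC boxes (GGGCGG or its reverse complement, the site of SP1-type factors).
Cgn (chr3:94786483-94786732, minus strand): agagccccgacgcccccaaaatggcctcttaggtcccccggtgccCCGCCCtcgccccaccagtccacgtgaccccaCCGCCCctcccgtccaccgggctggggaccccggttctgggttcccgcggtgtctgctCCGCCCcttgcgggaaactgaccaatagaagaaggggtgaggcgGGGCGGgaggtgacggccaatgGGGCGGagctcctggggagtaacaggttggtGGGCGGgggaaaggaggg
Dsp (chr13:38151044-38151293, plus strand): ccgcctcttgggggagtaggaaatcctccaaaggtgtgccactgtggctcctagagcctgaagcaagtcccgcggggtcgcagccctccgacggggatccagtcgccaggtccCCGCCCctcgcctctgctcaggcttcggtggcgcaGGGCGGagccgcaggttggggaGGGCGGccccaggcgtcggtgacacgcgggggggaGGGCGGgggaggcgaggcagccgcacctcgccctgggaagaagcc
The Cgn promoter held 6 GC boxes and the Dsp promoter 4, none of them overlapping another. At least 1 GC box was found in 32.7% of 32851 promoters of this length, at least 4 in 4.09% and at least 6 in 0.886%. Both sequences were rich in G and C, at 70.4% for Cgn and 72.4% for Dsp, beside a median of 52.4% over all promoters. At least 1 GC box stood in 46.3% of the 2038 promoters matched to genes listed as lower and in 58.2% of the 971 matched to genes listed as higher. On either strand, neither window held the E-box CAGGTG, which Snail and ZEB factors bind and which 17.2% of all promoters of this length held. The AP-1 letters TGANTCA, present in 6.75% of promoters, were also missing from both windows. The core of an androgen receptor site, written AGAACA, was in neither window and in 16.1% of promoters. The letters AACAAT, read by SOX factors, were in neither window and in 9.42% of promoters. Neither window held a TATA box, searched as TATAAA and found in 12.4% of promoters. The p53 decamer matched once in Dsp, outside the GC boxes, and not in Cgn, and was found in 7.13% of promoters. A match is a run of letters and not a shown binding site.

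Cgn and Jam2 each have close relatives in the table, and these were lower too. Cgnl1, which encodes the cingulin relative paracingulin, was listed as 2.09-fold lower, against 11.7-fold for Cgn in the authors' deposited table. Within each library, the log2 value of Cgn minus that of Cgnl1 was -2.39, -2.31 and -2.40 in wild-type and -4.21, -3.79 and -3.74 in knockout cells. The gap between the 2 relatives was thus wider in every knockout library, at -3.91 ± 0.26 against -2.37 ± 0.05 (SD, n = 3 each).

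In the JAM family, Jam3, which encodes the JAM-B partner JAM-C, was 1.82-fold lower and F11r, which encodes JAM-A, was 2.29-fold lower in the authors' deposited table, beside 4.77-fold for Jam2. Jam2 minus F11r was 0.35, 0.35 and 0.34 in wild-type and -0.66, -0.29 and -0.22 in knockout libraries on the log2 scale. The difference was thus lower in each knockout library than in any wild-type library. Jam2 minus Jam3 narrowed from 2.06 ± 0.14 to 1.09 ± 0.28 (SD, n = 3 each, log2). Esam, a related adhesion gene of endothelial tight junctions, was 21.1-fold lower in the authors' deposited table, from 8.38 ± 0.09 to 6.45 ± 0.08 (SD, n = 3 each).

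**Figure D3:**
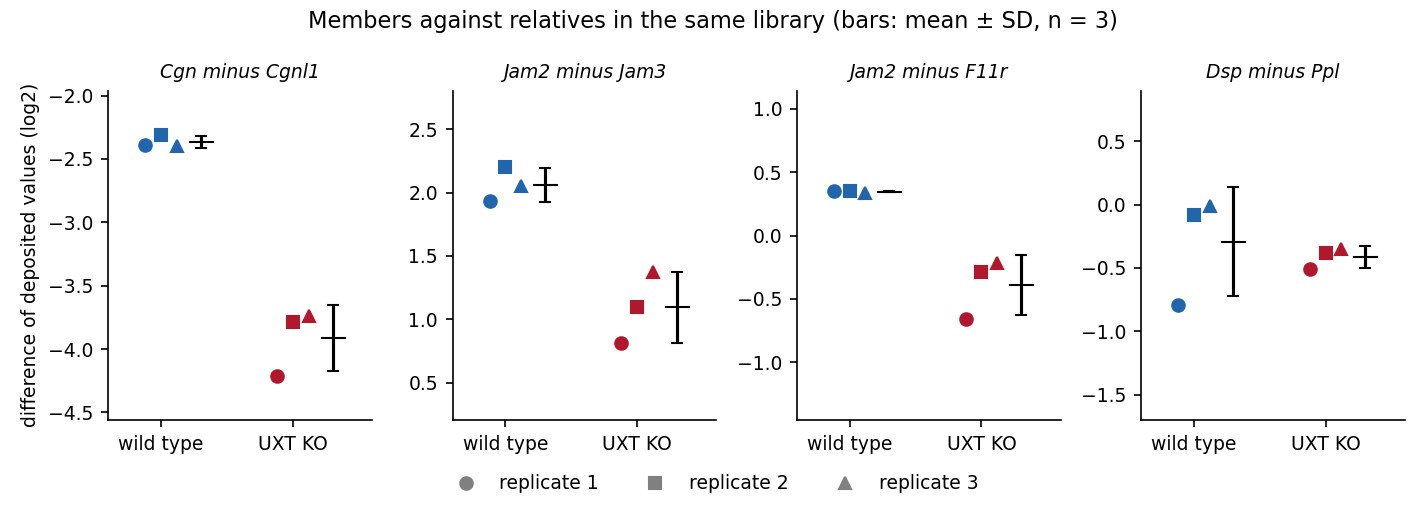
Log2 value of a member minus that of a relative in the same library (y axis, log2, the same span in every panel) for wild-type (blue) and knockout (red) cells, with replicates as symbols and mean ± SD in black. Cgn minus Cgnl1 moves from -2.37 to -3.91 and Jam2 minus F11r from 0.35 to -0.39, while Dsp minus Ppl overlaps between the groups.

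Of 58 fixed tight junction genes, Cgn and Jam2 included, 19 were in the table. By limma 17 were lower, both members among them, and 2 higher (adjusted p under 0.05). The median log2 fold change of the 19 was -1.80 in the authors' deposited table. It counts the members, which were chosen on this contrast. The median over all genes of that table was -0.88, and 67.5% were called lower and 32.1% higher. The largest falls besides those of the members were those of the claudin genes Cldn5 (26.5-fold) and Cldn4 (17.1-fold) and of Esam, in the authors' deposited table. Cldn4 had 10.70, 11.02 and 10.97 in wild-type and 7.60, 7.99 and 8.10 in knockout libraries. Named after their values were seen, Cldn11, the claudin of the Sertoli cell barrier, was 3.83-fold lower, the polarity gene Pard6b 6.46-fold lower and the tricellular junction gene Lsr 5.73-fold lower in the authors' deposited table. The 2 genes that were higher, also named afterwards, were the polarity gene Pard3 (1.93-fold) and Ybx3 (1.99-fold), a DNA- and RNA-binding partner of ZO-1, in the authors' deposited table.

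Among regulators and motor proteins that cingulin is linked to, the table held 4 of 19 fixed genes, all 4 called lower by limma. They were Cgnl1, F11r, the myosin light chain gene Myl12b, named after its value was seen, and the non-muscle myosin gene Myh14, the last with the largest fall of the 4 at 3.12-fold in the authors' deposited table. Their median log2 fold change was -1.13 in the authors' deposited table. Of all genes analysed 67.5% were called lower.

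Of 28 fixed desmosome and intermediate filament genes, Dsp and Perp included, 10 were in the table. Of these 9 were called lower, Perp among them, none was called higher and 1, Dsp, did not pass. The median log2 fold change of the 10, both members counted, was -1.36 in the authors' deposited table. The share called lower over all genes was 67.5%. The desmosomal cadherin genes Dsc2 and Dsg2 were 3.90-fold and 3.74-fold lower and the keratin gene Krt19 3.14-fold lower in the authors' deposited table. Dsc2 and Krt19 were low on the scale, so their folds are uncertain. Their per-library means were 5.91 and 6.08 in wild-type and 5.40 and 5.62 in knockout cells (log2). Dsg2 went from 7.48 ± 0.23 to 6.65 ± 0.18 (SD, n = 3 each, log2), and its wild-type replicate 1, at 7.21, was the lowest of that group, as in Dsp. Of the plaque genes, Jup, which encodes plakoglobin, was 1.68-fold lower, Pkp2 1.63-fold and Pkp3 2.56-fold in the authors' deposited table. Pkp3 was near the bottom of the scale, at 3.57 ± 0.03 in wild-type cells. Dsp minus Dsg2 was -0.68, -0.24 and -0.38 in wild-type and -0.03, -0.16 and 0.06 in knockout libraries, so the difference was higher in each knockout library. Dsp minus Ppl, a related plakin gene (periplakin) named after its values were seen, was -0.79, -0.08 and -0.01 in wild-type and -0.51, -0.38 and -0.35 in knockout libraries, and these values overlapped between the groups.

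Of 30 adherens junction genes 13 were in the table, with 12 called lower and 1 higher by limma, and of 22 gap junction genes 6, all called lower. The median log2 fold changes were -1.29 and -1.38 in the authors' deposited table. Over all genes 67.5% were called lower and 32.1% higher. Cdh13, which encodes T-cadherin, was 13.4-fold lower, the alpha-catenin gene Ctnna2 5.44-fold and the adhesion gene Cadm1 4.99-fold in the authors' deposited table. The connexin genes Gjb2, Gja6 and Gja4 were 5.86-fold, 3.37-fold and 3.11-fold lower in the authors' deposited table. Gjb2 was low on the scale, with per-library means of 6.18 in wild-type and 5.51 in knockout cells (log2), so its fold is uncertain. Gja6 was near the bottom of the scale, with per-library means of 3.25 in wild-type and 3.10 in knockout cells (log2), so its fold is uncertain. The gene called higher, named after its value was seen, was Pvrl3, at 1.82-fold in the authors' deposited table, which encodes nectin-3.

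Over these 4 lists together, 134 genes other than the members were fixed, 44 were in the table, and 41 of them were called lower and 3 higher, in a table where 67.5% were called lower and 32.1% higher. The median log2 fold change of these 44 was -1.32 in the authors' deposited table, beside -0.88 over all its genes. Without the genes that were also markers of a cell type, 33 were lower and 3 higher. The lists were chosen with earlier results of these data known, so these counts are a description and no independent support. After each library was centred on its median, which raised the median difference of all genes by 0.30 on the log2 scale, 28 of the 48 junction genes, members included, were called lower, in place of 44. Of all genes analysed, 31.4% were then called lower.

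**Figure D4:**
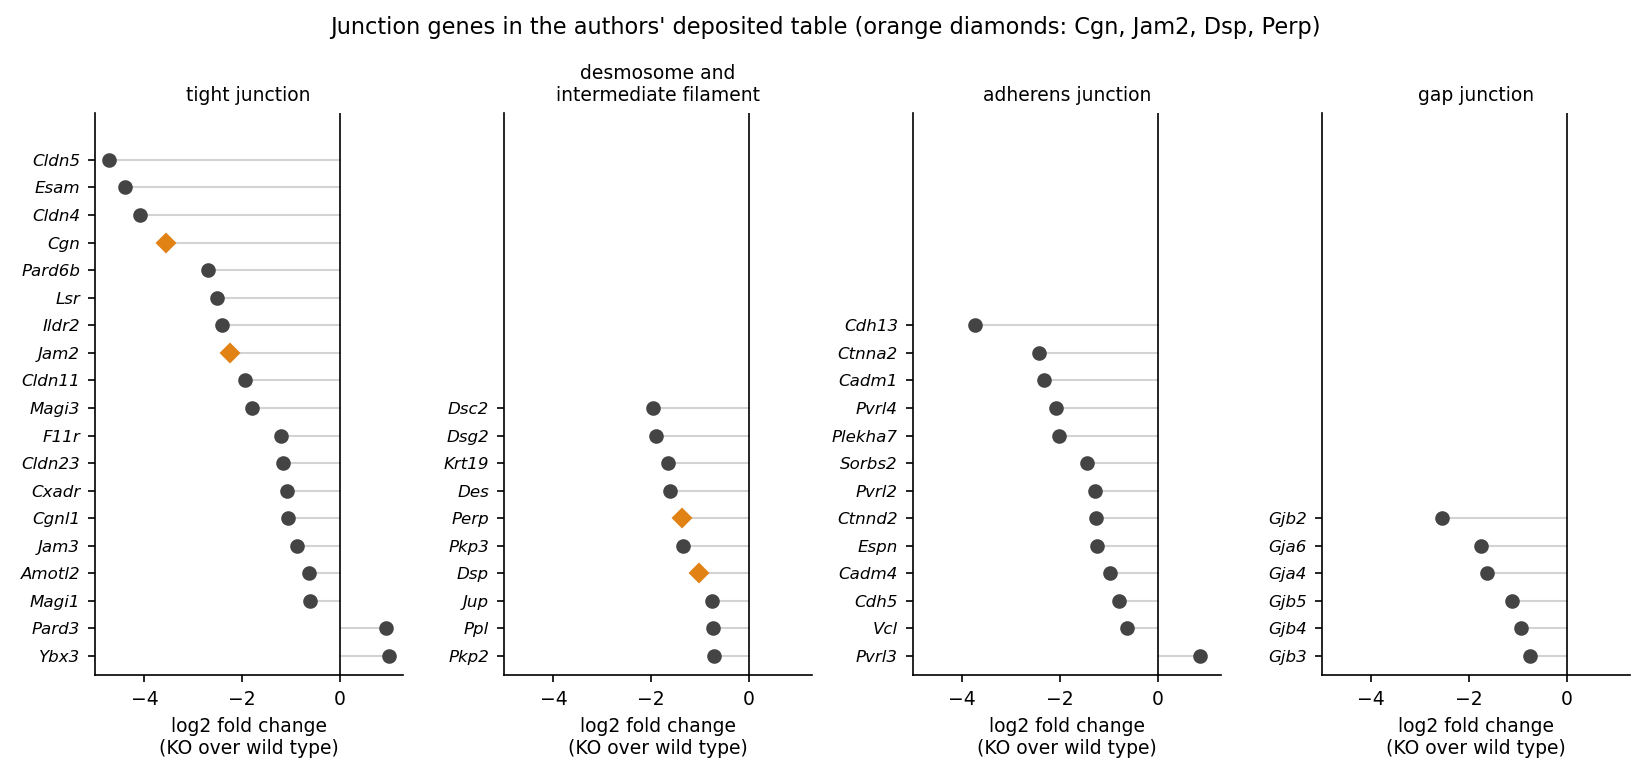
Log2 fold change of knockout over wild type in the authors' deposited table (x axis) for the genes of 4 junction lists found in it, a row per gene, with the members as orange diamonds. Tight junction genes run from Cldn5, 26.5-fold lower, to Ybx3, 1.99-fold higher, and Cgn and Jam2 lie in the lower part of that range.

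Perp is also a p53 target, and other targets went both ways, in a table where 67.5% of genes were called lower and 32.1% higher. Of 34 fixed genes of the p53 response, Perp included, 10 were in the table, 4 called lower (Perp among them) and 6 higher by limma, with a median log2 fold change of 0.62 in the authors' deposited table. Among the 6 higher was Trp53, the p53 gene itself. Named after its value was seen, Trp53 was 1.55-fold higher in the authors' deposited table. Gdf15, a secreted stress factor, was 6.72-fold lower, while Trp53inp1, a p53 cofactor, and Mdm2, the ubiquitin ligase of p53, were 1.93-fold and 1.91-fold higher in the authors' deposited table. Mdm2 had 13.39, 13.27 and 13.31 in wild-type and 13.86, 13.80 and 14.15 in knockout libraries, so that it lay apart between the groups in the direction opposite to Perp.

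Jam2 also serves leukocyte passage, and 9 of 16 fixed genes for JAM partners and leukocyte passage, Jam2 included, were in the table, all called lower by limma. Their median log2 fold change was -2.25 in the authors' deposited table. That median is the value of Jam2 itself, so it does not describe the other genes of the list apart from the member. Icam2 was 17.0-fold lower, the integrin gene Itgam 14.7-fold and the endothelial adhesion gene Pecam1 9.59-fold in the authors' deposited table. Icam2 was low on the scale, with per-library means of 6.17 in wild-type and 5.25 in knockout cells (log2), so its fold is uncertain. Of 24 transcription factor and splicing regulator genes tied to junction expression, 4 were in the table, and all 4 were called lower. The share called lower over all genes, 67.5%, stands beside both counts. Gata1 was 6.04-fold, Wt1 4.47-fold and Sox9 1.81-fold lower in the authors' deposited table. Gata1 was low on the scale, with per-library means of 4.87 in wild-type and 4.46 in knockout cells (log2), so its fold is uncertain.

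Markers of several cell types moved with these genes. Of 24 Sertoli cell markers 17 were in the table, all called lower, with a median log2 fold change of -1.94 in the authors' deposited table. Their summed level (log2 of the summed linear values) ran from 17.04 to 17.47 in wild-type and from 15.76 to 16.19 in knockout libraries. Of 22 endothelial markers 20 were in the table, all called lower, with a median of -3.42 on the same scale and summed levels of 14.22 to 14.35 and 13.42 to 13.62. All 16 macrophage markers were called lower, with a median of -2.56 and sums of 14.86 to 15.22 and 13.38 to 13.61. A sum follows its most abundant genes and carries the moderation, so sums and medians can order the lists differently, as they did for Sertoli and endothelial markers. Markers of other epithelia had 5 called lower and 1 higher of 22 (median -1.63, sums 11.79 to 12.02 and 10.27 to 10.45), and mesothelial markers 2 lower and 1 higher of 11 (median -1.65, sums 12.20 to 12.24 and 10.81 to 11.09). All 8 myoid markers were lower (median -1.28, sums 19.03 to 19.35 and 18.54 to 18.74), as were the 3 of 9 fibroblast markers in the table (median -0.85, sums 20.01 to 20.11 and 18.99 to 19.63). The 2 of 12 germ cell markers in the table were lower (median -1.76, sums 7.89 to 7.94 and 6.20 to 6.38), and the 3 of 8 Leydig cell markers in the table were higher (median 1.01, sums 15.15 to 15.35 and 15.71 to 16.04). No gene of the whole table was at 0 in any library, so the lack of values at 0 among these markers does not show that they were detected. The part of these markers in the values of Cgn, Jam2, Dsp and Perp was not tested. In RNA from a whole culture, fewer cells of a type and less RNA per cell cannot be told apart. Uxt was not analysed here, so the targeted gene gave no check of the labels.

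The genes whose 6 values ran most nearly in parallel with a member, by Pearson's r over the 6 libraries, are given as a description, since all genes of the table differ between the same groups. For Cgn they were Dtna (0.9998), which encodes a dystrobrevin, the sterol transporter gene Abcg1 (0.9994) and the lipid kinase gene Pip5k1b (0.9993). For Jam2 they were Trak1 (0.9994), a mitochondrial transport adaptor gene, Nrarp (0.9991), a Notch-induced gene, and the calcium sensor gene Stim1 (0.9989). For Perp they were the macrophage gene Adgre1 (0.9988), the glycosyltransferase gene B3gnt3 (0.9974) and Emp1 (0.9958), another tetraspan membrane protein gene. Adgre1 had 10.66, 10.53 and 10.22 in wild-type and 8.86, 9.07 and 9.23 in knockout libraries, the same order of the libraries within each group as in Perp. For Dsp they were Aldoart1 (0.9965), a retrogene of aldolase A, and the pseudogenes Gm11517 (0.9832) and Gm8709 (0.9742). Aldoart1 had 5.66, 6.44 and 6.36 in wild-type and 5.52, 5.64 and 5.94 in knockout libraries, so that wild-type replicate 1 again lay inside the knockout range. These 3 genes resemble abundant parent genes, among which the counting could split reads, so their values are uncertain.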

How the data were processed

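RNA-seq libraries of 3 wild-type and 3 UXT knockout Sertoli cell samples were grouped by sample title. FastQC, STAR, DESeq2 and mm10 are named per the submitters' processing notes. Not given in the sources used here are the read counter, annotation, use of strand and transformation of the per-library values. The authors deposited log2 values per library, a log2 fold change, a signed fold score, p-values and adjusted p-values for selected genes (largest adjusted p 0.0499). With no counts, depth was unknown. The symbols on 2 rows (4 rows) were left out.

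The deposited log2 values of all 3257 genes were fitted by limma 3.58.1 (R 4.3.3), using a mean-variance trend, no covariate and Benjamini-Hochberg adjustment. The fit was tested on simulated data. Members and gene lists were chosen with earlier results of these data known. Named genes were the members, their fixed relatives (Cgnl1, Jam3, F11r, Esam, Jup and plakophilins), the 3 with the largest fold change per junction list and the 3 most correlated with each member. Others are marked as named after their values were seen. One junction gene is not reported here and is left out of the list counts. For marker lists counts, medians and sums are given. Alternatives were quantile normalization, median centring, a replicate block, no trend, a filter on low values and leaving out each library. Positions are from GENCODE M21 (GRCm38) and promoters from RefSeq (GRCm38.p6).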

Additional observations from a re-analysis of the deposited data

How the results depend on the processing

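Since the members were chosen on this contrast, their values under each alternative are given as a description, and no support is drawn from a test. Cgn, Jam2 and Perp were lower in the knockout in all 11 alternatives run. Leaving out 1 library at a time gave -2.38 to -2.11 for Cgn, -1.63 to -1.38 for Jam2, -0.67 to -0.56 for Perp and -0.70 to -0.27 for Dsp (log2). The difference of Dsp was -0.44 with all libraries, -0.70 without wild-type replicate 1 and -0.27 without wild-type replicate 2. After median centring it was -0.14, and after quantile normalization 0.0037. Perp was at -0.61 with all libraries, -0.32 after median centring and -0.19 after quantile normalization. Over all genes, 2200 were called lower with the values as deposited, 1143 after quantile normalization and 1024 after median centring, and leaving out a library gave 2085 to 2158. The share of lower genes among those called was 67.8%, 52.1% and 47.9% in turn. Quantile normalization raised the median difference of all genes by 0.33 and median centring by 0.30 (log2). As the table holds selected genes, most of them lower, it cannot decide which scaling is right. Of the 48 junction genes 44 were called lower with the values as deposited, 28 after median centring and 43 to 45 when a library was left out. That count was added after seeing the data. The deviations of same-numbered libraries from their group means correlated over genes with r of 0.177, -0.0731 and -0.00388. The largest r, 0.196, was between wild-type replicate 2 and knockout replicate 3, so libraries did not all correlate best with their own number. As the table holds selected genes only, these values cannot decide whether same-numbered libraries were paired. With the replicate block 2207 genes were called lower and 1045 higher. The block leaves a difference of means unchanged with equal groups, so that of Dsp stayed at -0.44. Dsp did not pass limma at an adjusted p under 0.05 with the values as deposited. It did pass with the replicate block, without wild-type replicate 1 and without knockout replicate 3, and in no other alternative that kept it. Whether Dsp passed thus depended on the setting. The cause of these changes was not tested. Dsp had no value under the filter on low values, which removed it. The pseudocount alternative was not run, as the values were already on a log2 scale. Depth was unknown, and 3 libraries per group limit the precision.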
